A study of Mus musculus with 4 samples.

Results

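Hormone-sensing luminal (HS) cells are the cells of the mammary ducts that carry the receptors for estrogen, progesterone and prolactin. Here they were chosen from single-cell RNA counts as luminal cells with transcripts of Ly6d, Fxyd2 and Gpx3 above those of 3 alveolar-type genes. They numbered 1168 of 18223 deposited cell barcodes, and were compared with 15231 other epithelial cells, of which 5557 were luminal. The libraries came from FVB mice homozygous for a floxed Tfap2c gene (Tfap2c fl/fl) that carried Krt5-CreERT2, so the controls had the same alleles. Cre in these mice is made under the Krt5 promoter, which luminal cells largely do not use, and 4-hydroxytamoxifen (4OHT) activates it. Mammary glands were taken at postnatal week 9, after injections from week 4 of corn oil, the vehicle (2 mice, 1 library each), or of 4OHT (2 mice, 1 library each). No library came from mice given 4OHT without the floxed gene and Cre, so the effect of 4OHT itself on HS cells was not tested. The labels give the length of the injections in more than one way. The series was made to ask how mammary stem cells respond to conditional loss of Tfap2c.

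As background, ovarian estrogen and progesterone and pituitary prolactin act on the gland largely through these cells. HS cells rarely divide in response themselves and instead release signals such as amphiregulin, RANK ligand and WNT4, which act on neighbouring luminal and basal cells. The estrogen receptor works at DNA that FOXA1 opens, GATA3 maintains the luminal state, and the prolactin receptor signals through JAK2 and STAT5. Luminal progenitor and alveolar cells form the other luminal branch, marked by Kit, Elf5 and milk protein genes. Basal cells carry Krt5, Krt14, Trp63 and contractile genes.

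The rule used 13 genes. A cell with at least 1000 unique molecular identifiers (UMIs, each a counted transcript molecule), at least 500 genes and at most 10% mitochondrial counts was luminal where Krt8, Krt18 and Krt19 together (L) gave at least 5 UMIs and more than 3 times the sum of Krt5, Krt14, Krt17 and Acta2 (B). It was an HS cell where Ly6d, Fxyd2 and Gpx3 (H) gave at least 3 UMIs and more than Wfdc18, Csn3 and Ltf (P). Other epithelial cells were all others with L or B of at least 5. These 13 genes are given as a description only, and so is every difference between HS and other cells below, since the cells were chosen on their own transcripts.

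The number of HS cells was 151 in corn oil replicate 1, 330 in corn oil replicate 2, 240 in 4OHT replicate 1 and 447 in 4OHT replicate 2, and values are given in this order throughout. The summed HS counts held 1297128, 1700054, 1553184 and 2539711 UMIs. The median HS cell held 8258, 4745.5, 6152 and 5083 UMIs, against 5313.5, 3657.5, 4352.5 and 3091 in other epithelial cells. Library totals ranged from 17351950 to 22017878 UMIs. Pairs of libraries shared 18 to 36 cell barcodes, of which at most 1 was an HS cell in both. The targeted gene did not separate the groups in the cells that use Krt5: non-luminal epithelial cells held Tfap2c at 412, 311, 370.3 and 405 CPM (UMIs scaled to the population's total), so the libraries labelled 4OHT were not below the others. A 3′ count does not tell exons apart and does not measure the deletion. The groups below are therefore the libraries labelled corn oil and 4OHT. Nothing in the labels ties replicate numbers across groups.

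The promoters of 3 genes that stood high in HS cells are shown, for the prolactin receptor gene, for the pioneer factor gene Foxa1 and for Cited1, a transcriptional coregulator of the estrogen receptor. Each is the 250 bases before a RefSeq start on GRCm38.p6, 5′ to 3′ on the gene's strand. Capitals mark a FOXA motif (TGTTTAC or TGTTTGC) in the first pair and an AP-2 motif (GCCNNNGGC) in Cited1, the motif of the family that includes Tfap2c. Prlr and Cited1 each have 3 listed starts, of which the one with the match is shown.
Prlr, chr15:10223656-10223905 (+): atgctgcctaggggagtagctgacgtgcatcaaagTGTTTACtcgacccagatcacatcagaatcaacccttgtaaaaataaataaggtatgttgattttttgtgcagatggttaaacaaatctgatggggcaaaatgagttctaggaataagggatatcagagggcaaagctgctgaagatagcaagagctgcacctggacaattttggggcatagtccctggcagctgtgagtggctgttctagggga
Foxa1, chr12:57546112-57546361 (-): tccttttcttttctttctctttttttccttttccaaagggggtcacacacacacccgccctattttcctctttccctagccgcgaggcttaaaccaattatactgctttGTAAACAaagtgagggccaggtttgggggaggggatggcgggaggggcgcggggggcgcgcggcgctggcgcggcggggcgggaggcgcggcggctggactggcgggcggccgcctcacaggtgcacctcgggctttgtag
Cited1, chrX:102250777-102251026 (-): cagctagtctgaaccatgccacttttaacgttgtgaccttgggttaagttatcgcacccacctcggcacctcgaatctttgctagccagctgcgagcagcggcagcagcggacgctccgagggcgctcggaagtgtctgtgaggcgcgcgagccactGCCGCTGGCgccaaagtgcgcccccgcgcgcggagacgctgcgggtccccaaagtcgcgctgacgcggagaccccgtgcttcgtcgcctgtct

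Of the 25 genes named as highest above other epithelial cells, 21 matched a promoter of 300 bases (250 before and 50 after the start). Both strands were searched over 32851 promoters of 27025 genes. Promoters on chromosome 18 were left out of the search, so a gene there could not match. The FOXA motif was in 3 of the 21 (AW112010, Foxa1 and Prlr), and in 9.47% of all genes. The AP-2 motif was in 3 (Cited1, Tspan1 and Tspan13), and in 18.5% of all genes. A full palindromic estrogen response element was in none of the 21, and in 0.0740% of all genes, while a single arm of it (AGGTCA) was in 4 (Cited1, Cyp3a57, Fam25c and Tph1), and in 18.1% of all genes. The GATA motif (AGATAA) was in 5, and in 12.7% of all genes, and a STAT5 motif (TTCNNNGAA) was in Fgb and Prlr, and in 9.55% of all genes. A full element can also hold the single arm, and a match only describes the letters.

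**Figure D1:**
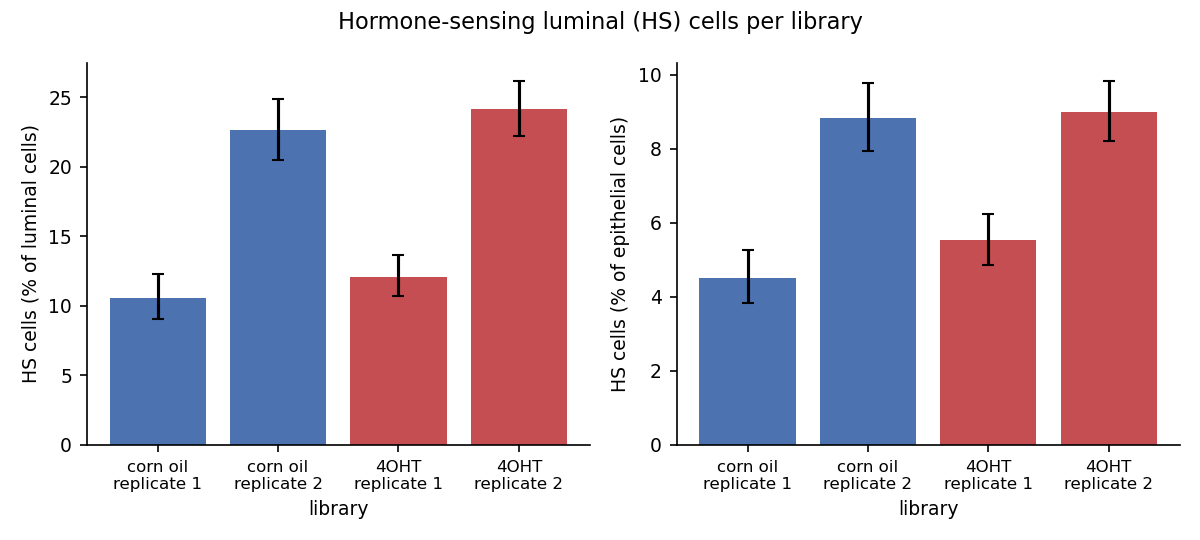
Share of HS cells among luminal cells (left) and among all epithelial cells (right), in percent, by library. Bars are single libraries, error bars are exact (Clopper-Pearson) 95% intervals for counting error, and the 2 libraries numbered 2 stand above the 2 numbered 1 in both panels.

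HS cells made up 10.6% of luminal cells in corn oil replicate 1 (exact Clopper-Pearson 95% interval 9.01 to 12.3), 22.6% in corn oil replicate 2 (20.5 to 24.9), 12.1% in 4OHT replicate 1 (10.7 to 13.6) and 24.1% in 4OHT replicate 2 (22.2 to 26.1). Each group held a low and a high library, and the groups overlapped. The means were 16.6% ± 8.54 for corn oil and 18.1% ± 8.50 for 4OHT (SD, n = 2 each), a difference of 1.51 percentage points with an exact two-sided permutation p of 0.667, where 2 libraries against 2 cannot go below 0.33. Of all epithelial cells, HS cells were 4.51%, 8.82%, 5.53% and 9.00%, with means of 6.66% ± 3.05 and 7.26% ± 2.45 (SD, n = 2 each, exact permutation p 0.667). Without corn oil replicate 1 the difference among luminal cells was -4.52 points, and without 4OHT replicate 2 it was -4.50, so its direction rested on single libraries. The plot of shares by library shows that the spread between the 2 libraries of a group was many times the difference between the groups.

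Along the rule's limit for H, 145 HS cells held 3 or 4 UMIs of its 3 genes and 1023 held 5 or more, while 134 luminal cells with 1 or 2 UMIs above P stood just outside. The summed level of Prlr and Pgr, which the rule did not use, was 355, 496, 438 and 531 CPM in the cells just inside and 341, 430, 162 and 601 CPM in those just outside. These 2 bins overlapped. In cells with 5 or more it was 675, 579, 855 and 748 CPM. A further 218 luminal cells had at least 3 UMIs of H but at least as many of P, and they held 136, 174, 74.0 and 296 CPM. Another 113 cells would have been HS cells had B been ignored, with 61.2, 388, 154 and 484 CPM. Cells with receptor transcripts thus lay on both sides of the limit.

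Transcripts of the prolactin, progesterone and estrogen receptors were all higher in HS cells than in other epithelial cells, in each of the 4 libraries. Prlr (ENSMUSG00000005268, chromosome 15, 10177238 to 10349180, plus strand, GRCm38), the prolactin receptor, stood at 524, 362, 639 and 582 CPM in HS cells. Other luminal cells held 16.8, 33.4, 10.4 and 45.3 CPM and non-luminal cells 1.94, 9.1, 3.61 and 12.6 CPM. The lowest HS value lay above the highest value of other cells, and the within-library log2 difference from other epithelial cells was 5.23 ± 1.09 (SD, n = 4), on log2(CPM + 1) as for all such differences here. Pgr (ENSMUSG00000031870, chromosome 9, 8899833 to 8968611, plus strand), the progesterone receptor, stood at 138, 203, 182 and 147 CPM, with 2.21, 12.7, 2.51 and 14.8 in other luminal cells, a log2 difference from other epithelial cells of 4.87 ± 0.99 (SD, n = 4). Esr1 (ENSMUSG00000019768, chromosome 10, 4611593 to 5005614, plus strand), the estrogen receptor alpha gene, was lower than both, at 40.1, 27.6, 43.8 and 31.5 CPM, and its log2 difference was 2.87 ± 0.16 (SD, n = 4). The 3′ counts do not allow for transcript length, but each sample's UMIs count molecules, and in every library Prlr gave more UMIs than Pgr and Pgr more than Esr1.

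In the 2 libraries numbered 2, which held the larger share of HS cells, other cells also held more HS transcripts. Prlr in non-luminal cells was 9.10 and 12.6 CPM there, against 1.94 and 3.61 CPM in the libraries numbered 1. The part of free RNA in these low levels was not tested.

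Of the 13 genes of the hormone receptor list, 11 passed a mean of 10 CPM, 3 were at least 2-fold higher in HS cells in each of the 4 libraries (Prlr, Pgr and Esr1) and 2 were at least 2-fold lower. Over all 6222 genes that passed that level, 416 (6.69%) were higher and 686 (11%) were lower by the same rule. The lower receptors were Nr3c1, the glucocorticoid receptor, at 15.4, 13.5, 13.5 and 11.8 CPM against a mean of 39.5 in other luminal and 54.3 in non-luminal cells, and Igf1r, the receptor for insulin-like growth factor, at 4.63, 3.53, 8.37 and 3.94 CPM against 26.6 and 124. The growth hormone receptor Ghr stood at 10.8, 5.88, 36.7 and 10.6 CPM and did not meet the 2-fold limit. No UMI of Esr2 or Thrb was found in HS cells of any library, which allows at most 3 UMIs per library at this depth.

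**Figure D2:**
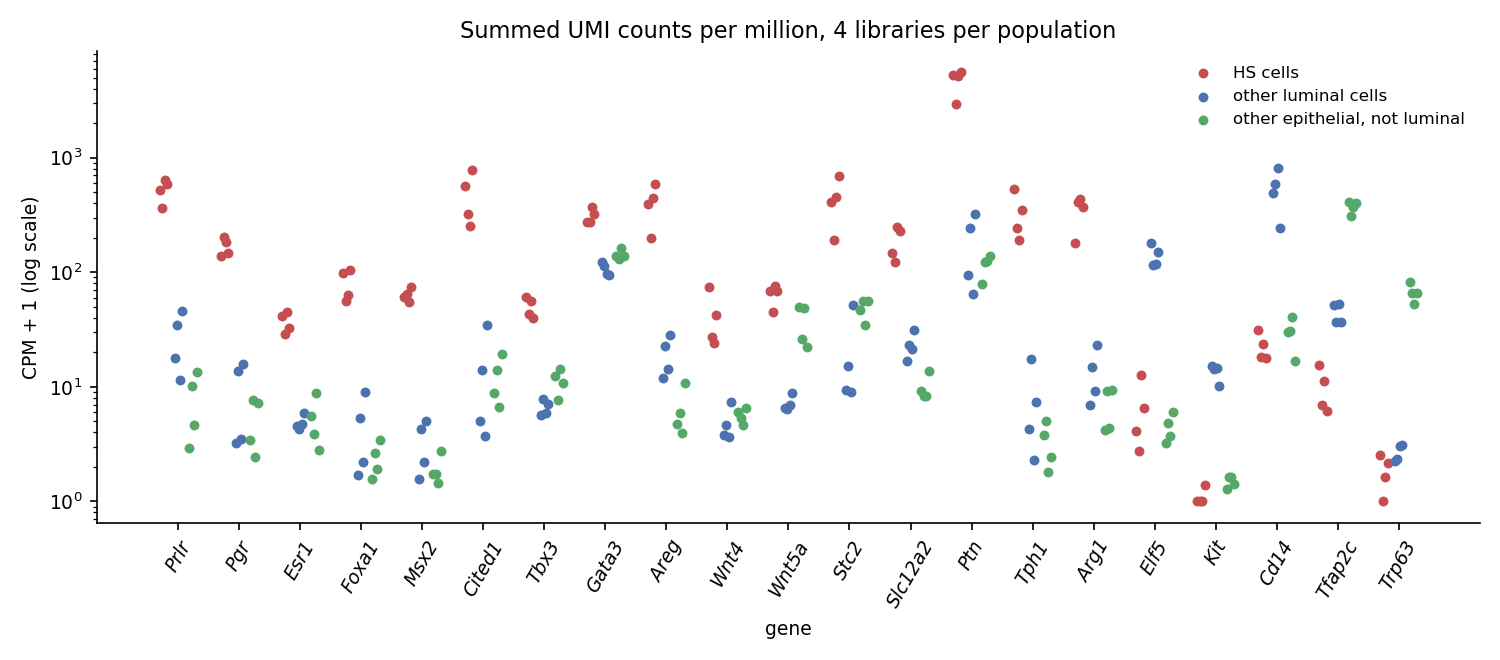
Levels of 21 genes (CPM plus 1, log axis) in HS cells, other luminal cells and non-luminal epithelial cells, with 1 point per library. Receptors, their transcription factors and ligands stand highest in HS cells in all 4 libraries, while Elf5, Kit and Cd14 stand highest in other luminal cells and Tfap2c and Trp63 in non-luminal cells.

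Shares of cells with a transcript were compared at equal depth, after random thinning to 2000 UMIs a cell. The 19 HS cells below that depth were left out. A Prlr UMI was then found in 49.7%, 45.4%, 59.7% and 60.6% of HS cells, against 2.16%, 5.01%, 1.78% and 4.11% of other luminal and 0.372%, 1%, 0.361% and 0.973% of non-luminal cells. For Pgr these shares were 21.9%, 30.1%, 27.1% and 23.9% of HS cells and 0.265%, 0.764%, 0.225% and 0.973% of non-luminal cells. Esr1 was found in 9.93%, 7.06%, 6.36% and 6.19% of HS cells. At least 1 of the 3 receptors was found in 69.5%, 63.5%, 72.5% and 70.6% of HS cells, in 2.88%, 6.38%, 2.64% and 6.12% of other luminal cells and in 1.27%, 1.77%, 2.34% and 1.91% of non-luminal cells. All 3 together were found in 0, 2, 2 and 4 HS cells. At 2000 UMIs per cell a missing UMI does not show that the receptor is absent.

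**Figure D3:**
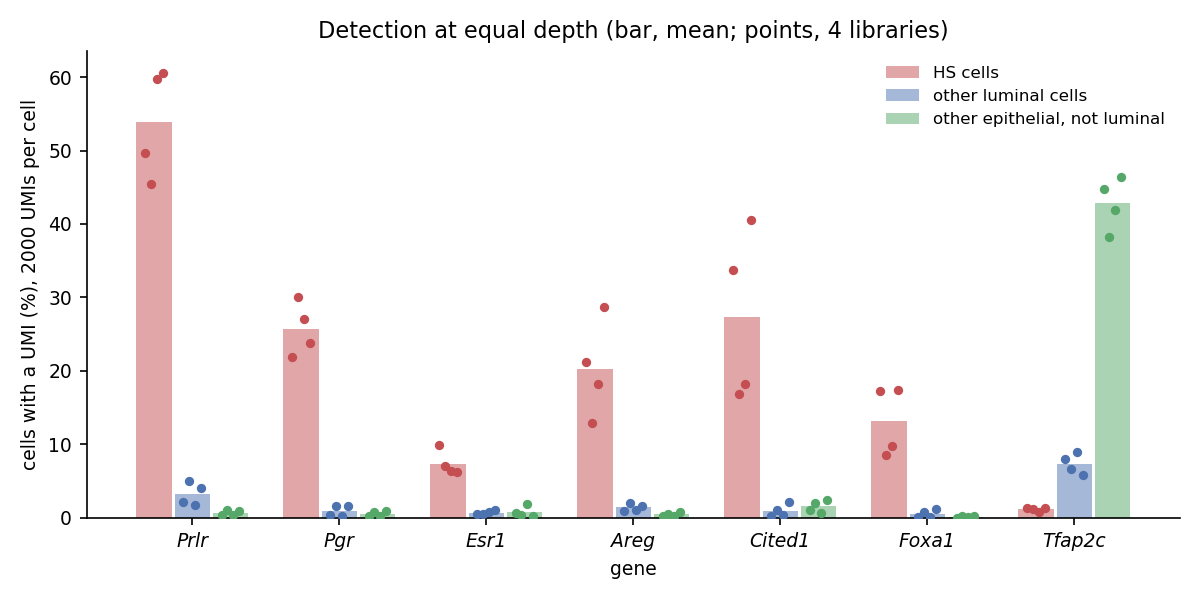
Percentage of cells with a UMI after each cell was thinned to 2000 UMIs, for 7 genes in the 3 populations (bars, mean of 4 libraries, points, single libraries). Prlr, Pgr, Esr1, Areg, Cited1 and Foxa1 were seen mainly in HS cells, and Tfap2c mainly in non-luminal cells.

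Of 12 transcription factors listed for the HS lineage, 10 passed 10 CPM and 6 were at least 2-fold higher in HS cells in all 4 libraries (Cited1, Msx2, Foxa1, Gata3, Tbx3 and Myb), while Hey1 was lower, against 6.69% higher and 11% lower over all genes. Cited1 (chromosome X, 102247381 to 102252181, minus strand), whose promoter is shown above, stood at 569, 318, 251 and 781 CPM, against 4, 13.1, 2.75 and 33.3 in other luminal cells. It varied several-fold between HS libraries, with both a high and a low library in each group. Foxa1 (chromosome 12, 57540628 to 57546916, minus strand), the factor that opens chromatin for the estrogen receptor, was at 97.9, 54.7, 62.5 and 103 CPM, with 0.69, 4.3, 1.2 and 7.96 in other luminal cells. Msx2, a homeobox gene, was at 60.1, 62.9, 54.1 and 72.8 CPM, the steadiest of the 3. Gata3 was also present elsewhere: 273, 273, 373 and 321 CPM in HS cells against means of 105 ± 13.3 in other luminal and 141 ± 14.1 in non-luminal cells (SD, n = 4 each). Tbx3, a T-box repressor, had a log2 difference of 2.40 ± 0.23 and Myb one of 3.62 ± 0.50 (SD, n = 4 each). Runx1, by contrast, was lower than in non-luminal cells, with 154, 198, 158 and 141 CPM against a mean of 323. Notch target Hey1 was at most 4.63 CPM in HS cells and at a mean of 56.8 CPM in other luminal cells.

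Most factors of the other lineages were low. None of 10 was at least 2-fold higher and 7 were at least 2-fold lower than in other epithelial cells. Over all genes 6.69% were higher and 11% lower. Against other luminal cells 7 passed the level, and 1 was higher and 4 lower (6.81% and 6.1% over all genes). Elf5, which drives the alveolar branch, stood at 3.08, 1.76, 11.6 and 5.51 CPM, against 179, 115, 118 and 149 in other luminal cells. Trp63, the basal master gene, was at or below 1.54 CPM in HS cells and at a mean of 65.6 in non-luminal cells. Sox10 and Id4 had log2 differences of -4.08 and -4.89 from other epithelial cells.

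The targeted gene Tfap2c (ENSMUSG00000028640, chromosome 2, 172549593 to 172558622, plus strand), which encodes the AP-2γ factor, was hardly present in HS cells. It stood at 14.6, 5.88, 10.3 and 5.12 CPM (19, 10, 16 and 13 UMIs), against 50.6, 35.9, 52.2 and 35.6 in other luminal and 412, 311, 370.3 and 405 in non-luminal cells. The corn oil and 4OHT values overlapped. After thinning, a Tfap2c UMI was found in 1.32%, 1.23%, 0.847% and 1.38% of HS cells and in 44.7%, 38.2%, 42% and 46.4% of non-luminal cells. Between labelled groups the difference in HS cells was not resolved (log2 fold change -0.45, standard error 0.56, unadjusted p 0.441, adjusted p 1.00, edgeR quasi-likelihood test). Of its relatives, Tfap2b stood at 68.6, 64.7, 57.3 and 64.6 CPM in HS cells against 27.2, 19.3, 19.8 and 20.6 in other luminal cells, and Tfap2a at 57.8, 33.5, 63.1 and 38.2 CPM against 25.5, 40.8, 36.9 and 21.4.

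Of the paracrine ligands that HS cells are known for, amphiregulin stood highest. Of 12 listed, 6 passed 10 CPM, 3 were higher in all libraries (Areg, Wnt4 and Wnt5a) and Cxcl12 was lower. Over all genes 6.69% were higher and 11% lower. Areg (chromosome 5, 91139599 to 91148432, plus strand), the gene of amphiregulin, a ligand of the EGF receptor, stood at 391, 199, 439 and 589 CPM, against 11, 21.8, 13.3 and 27.5 in other luminal and 3.69, 4.86, 2.97 and 9.83 in non-luminal cells. It was lowest in corn oil replicate 2 and highest in 4OHT replicate 2, and each 4OHT value stood above each corn oil value. That difference did not pass the test (log2 fold change 0.79, standard error 0.32, unadjusted p 0.0349, adjusted p 1.00, edgeR quasi-likelihood test). Wnt4, the WNT ligand that progesterone induces, was at 73.2, 26.5, 23.2 and 41.7 CPM, and Wnt5a at 67.8, 44.1, 74.7 and 67.3 CPM. Tnfsf11, the gene of RANK ligand, had no UMI in HS cells of any library, again with at most 3 UMIs per library allowed, and Calca was at 0, 1.76, 0.644 and 0 CPM.

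Of 12 listed receptors and processing genes for these ligands, 7 passed 10 CPM, none was higher, 3 were lower and 4 met neither limit. Over all genes 6.69% were higher and 11% lower. In the comparison with other luminal cells 1 of 5 was lower (6.1% over all genes). Egfr, the receptor of amphiregulin, stood at 1.54, 1.76, 3.22 and 1.18 CPM against means of 18.8 in other luminal and 34.6 in non-luminal cells. Fzd7, a WNT receptor, was at 15.4, 7.06, 9.66 and 10.6 CPM against 176 in non-luminal cells. Adam17, the protease that frees amphiregulin, was at 13.1, 7.06, 9.01 and 5.51 CPM, near its mean of 10.5 in other luminal cells, and the coreceptor Erbb3 was at 43.9, 33.5, 32.2 and 39.8 CPM. Tnfrsf11a, the gene of RANK, stood at 0, 0.588, 2.58 and 1.97 CPM against a mean of 16.4 in non-luminal cells.

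Of 16 genes known as estrogen targets, 10 passed 10 CPM, and 3 were higher (Areg, Pgr and Stc2) and 2 lower (Igfbp4 and Myc) than in other epithelial cells. Over all genes 6.69% were higher and 11% lower. Set against other luminal cells, 3 of 9 were higher and none lower (6.81% and 6.1% over all genes). Stc2, the secreted glycoprotein stanniocalcin 2, stood at 412, 189, 453 and 688 CPM against 8.41, 14.2, 8.01 and 50.5 in other luminal cells. Greb1 was between 0.588 and 12.2 CPM, and no UMI of Agr2 or Tff3 was found. Downstream of the prolactin receptor, Stat5a was at 38.5, 49.4, 47 and 33.5 CPM against a mean of 11.1 in other luminal cells, and Jak2 at 28.5, 21.2, 23.8 and 15.7. Of the 9 JAK and STAT5 genes, 7 passed the level. Of these, 2 (Prlr and Stat5a) were higher than in other epithelial cells in all libraries (6.69% over all genes). The feedback inhibitor Socs3 was at 239, 148, 230.5 and 413 CPM against 24.7, 33.1, 21.8 and 28.6 in other luminal cells, but non-luminal cells held a mean of 211.

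Genes for salt and water transport went both ways. Of 14, apart from the rule's own Fxyd2, 8 passed the level. Of these, 4 were higher and 1 lower than in other epithelial cells (6.69% and 11% over all genes). Against other luminal cells 3 of 8 were higher and 3 lower (6.81% and 6.1% over all genes). Slc12a2, a sodium, potassium and chloride cotransporter, stood at 147, 122, 247 and 227 CPM against 15.9, 22.3, 20.4 and 30.4 in other luminal cells. Aqp5, a water channel, was at 247, 261, 147 and 235 CPM, Scnn1a, a subunit of the epithelial sodium channel, at 33.9, 32.9, 24.5 and 30.7 CPM, and Atp1b1, a sodium pump subunit, at 45.5, 37.1, 73.4 and 66.1 CPM. The channel partner Scnn1b went the other way, at 4.63, 4.71, 3.22 and 1.97 CPM against a mean of 21.5 in other luminal cells, and Clic6 was almost absent. Of 12 surface proteins used in cell sorting, 7 passed the level. Ly6a (Sca-1), Cd24a and Prom1 were higher and Cd14 was lower than in other epithelial cells (6.69% and 11% over all genes). Against other luminal cells 2 of 9 were higher and 1 lower (6.81% and 6.1% over all genes). Cd24a stood at 2144, 2352, 2521 and 2327 CPM and Prom1 at 77.1, 51.2, 39.9 and 31.1 CPM. Of 12 antioxidant enzymes, 8 passed the level beside Gpx3, which the rule used. Of these, only Gpx1 was at least 2-fold higher than in other epithelial cells in all libraries (6.69% over all genes). Against other luminal cells none of 8 was higher (6.81% over all genes).

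The 25 genes named as highest against other epithelial cells, outside the 13 of the rule, also held metabolic and secreted products. Tph1, the rate-limiting enzyme of peripheral serotonin synthesis, stood at 533, 243, 191 and 347 CPM against 3.31, 16.4, 1.31 and 6.33 in other luminal cells. Ptn, the secreted growth factor pleiotrophin, was the most abundant of them, at 5250.1, 2926, 5150.1 and 5571 CPM. Arg1, arginase 1, was at 178, 407, 433 and 374 CPM, Cdo1, cysteine dioxygenase, at 279.8, 180.0, 317 and 589 CPM, and Fgb, the fibrinogen beta chain, at 406, 510.0, 155 and 541 CPM. Crym, which binds thyroid hormone, was at 79.4, 52.9, 118 and 216 CPM, and Reg3g, an antibacterial lectin, at 51.7, 23.5, 93.4 and 121 CPM. Upk3a, a urothelial membrane protein, was at 162, 34.7, 59.9 and 193 CPM and varied most. The tetraspanins Tspan1 and Tspan13, the tight junction gene Cldn10, the PDZ protein gene Gipc2 and AW112010 had log2 differences of 5.38, 4.95, 4.62, 5.11 and 5.74, and the others were Cxcl15, R3hdml, Fam25c, Cyp3a57, Col8a1 and Samd5, beside the receptors and factors given above. Against other luminal cells alone, 399 of 5855 genes (6.81%) were higher and 357 (6.1%) lower. Of the 416 genes higher against other epithelial cells, 284 were among the 399.

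The 10 genes named as lowest against other epithelial cells were Tagln, Ctgf, Kctd4, Csn1s1, Cotl1, Cxcl14, Ripor2, Mylk, Lmod1 and Myh11. Most are contractile or otherwise basal. Tagln stood at 44.7, 14.1, 17.4 and 32.3 CPM, against 2660.4 on average in non-luminal and 117 in other luminal cells. Against other luminal cells, the 10 lowest were the milk protein genes Csn1s1, Csn1s2a and Lalba, with Spp1, Trf, Apod, Fcgbp, Tspan8, Wfdc3 and Igfbp5. Csn1s1 stood at 9.25, 24.1, 0.644 and 3.54 CPM against 645, 1396, 112 and 267 in other luminal cells, and Spp1, osteopontin, at 63.2, 42.9, 34.1 and 73.6 against 4481, 3157, 1990.1 and 2912.

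**Figure D4:**
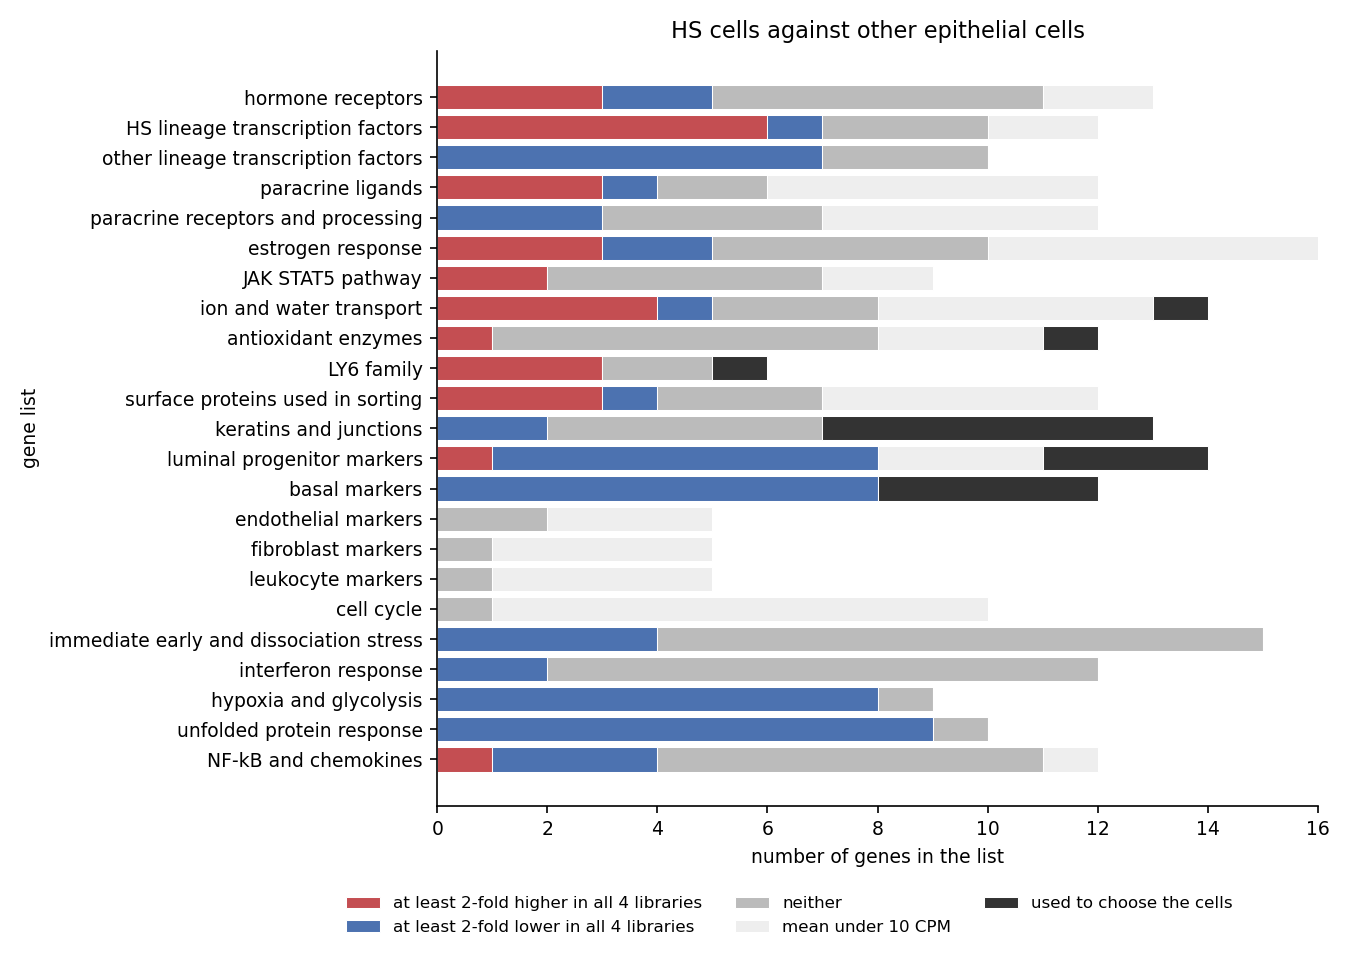
For each of 23 gene lists, the number of members that were at least 2-fold higher or lower in HS than in other epithelial cells in all 4 libraries, neither, under a mean of 10 CPM, or used by the rule. Stress lists (hypoxia, unfolded protein response) and basal markers lie on the lower side.

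Markers of other cell types set the label against the data. Luminal progenitor genes were low in HS cells: of 8 that passed the level apart from the 3 of the rule, 7 were lower and 1 higher. Over all genes 11% were lower and 6.69% higher than in other epithelial cells. The 1 higher progenitor-list gene was Cxcl15, a chemokine gene, at 169.6, 281, 352 and 393 CPM in HS cells and 1.93, 14.7, 2.99 and 27.1 in other luminal cells. Kit, the progenitor receptor, was at 0, 0, 0 and 0.394 CPM against 14.1, 13.4, 13.6 and 9.1 in other luminal cells. The 8 basal markers outside the rule were all lower, such as Oxtr, the oxytocin receptor, at 6.94, 0.588, 2.58 and 4.72 CPM in HS cells against 154, 130.4, 151 and 145 in non-luminal cells, and Cnn1, calponin, at 17.7, 8.82, 10.9 and 14.2 CPM against 497, 648, 482 and 787. Against other luminal cells, 1 of the 4 basal markers that passed the level was lower (6.1% over all genes). The rule required low Krt5, Krt14, Krt17 and Acta2, so low basal genes in HS cells follow in part from the choice of cells. The receptors Prlr, Pgr, Esr1 and the factor Foxa1, listed as HS markers, all stood higher in HS cells. Leukocyte, fibroblast and endothelial markers were unevenly spread: leukocyte markers were 1.54, 3.53, 98.5 and 0.787 CPM, endothelial markers 16.2, 44.7, 13.5 and 144, and fibroblast markers 243, 51.8, 1344 and 237. The leukocyte value of 4OHT replicate 1 came from 147 Cd74 UMIs in 1 cell, and the endothelial value of 4OHT replicate 2 included 184 Fabp4 UMIs in 15 cells.

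The fibroblast total was nearly all Dcn (chromosome 10, 97479609 to 97518143, plus strand), the gene of the matrix proteoglycan decorin, at 243, 50.6, 1325 and 237 CPM. The other members, Col1a1, Col3a1, Lum and Pdgfra, added little to the sum. Of the 5 members, 4, 2, 0 and 2 had no UMI in HS cells. In 4OHT replicate 1, where Dcn was highest, every member had a UMI, and the sum was 1344 CPM. Dcn was found in 29.8%, 12.4%, 44.2% and 16.8% of HS cells, in 0.860% to 2.47% of other luminal cells and in 2.04% to 6.53% of non-luminal cells. At 2000 UMIs per cell it was found in 15.2%, 6.13%, 37.7% and 13.5% of HS cells. Its HS level was highest in 4OHT replicate 1 and lowest in corn oil replicate 2, and the groups overlapped (log2 fold change 2.41, standard error 0.79, unadjusted p 0.0126, adjusted p 1.00, edgeR quasi-likelihood test). With replicate number as a block Dcn passed, with an adjusted p of 0.00664.

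Genes of the unfolded protein response and of hypoxia were lower in HS cells than in other epithelial cells. Of 10 genes of the unfolded protein response 9 were at least 2-fold lower in all libraries, and of 9 hypoxia and glycolysis genes 8 were. Over all genes 11% were lower by that rule. Hspa5, the chaperone BiP, stood at 479.5, 299, 330.3 and 274 CPM against means of 2104 in other luminal and 3243 in non-luminal cells. Slc2a1, the glucose transporter GLUT1, was at 178, 118, 143 and 91 CPM, against 429 and 2605. Of the 10 cell cycle genes 9 were under 10 CPM, Mki67 at 2.31, 4.71, 0 and 2.76 CPM. Of 12 interferon genes none was higher, 2 were lower and 10 met neither limit (11% lower over all genes). Against other luminal cells 4 of 12 were lower (6.1% over all genes). Ifit1 stood at 7.71, 40.6, 13.5 and 11.4 CPM. Against other luminal cells, 4 genes in each of the unfolded protein and hypoxia lists met the limit (6.1% over all genes). Of 15 immediate early genes, which also respond to tissue dissociation, 4 were lower than in other epithelial cells (Egr1, Dusp1, Nr4a1 and Zfp36), against 11% over all genes.

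Among HS cells, thinned to 2000 UMIs, the genes with the largest Fano factor (variance over mean) were counted over 732 genes with a mean of at least 0.2 UMIs. The median Fano factor was 1.19 to 1.23. The 12 genes with the best worst rank over the libraries were Mt1, Mt2, Malat1, Hspb1, Hspa1a, Tmsb4x, Actg1, Slpi, Ptn, Hsp90aa1, Hist1h2bc and Hist1h1c. Mt1, a metallothionein, had Fano factors of 67.8, 65.7, 63.8 and 53.1. Mt1 and Mt2 varied together, with r over cells of 0.83, 0.89, 0.89 and 0.85, as did the heat shock genes Hspb1 and Hsp90aa1 (0.65, 0.57, 0.64 and 0.63) and the histone genes Hist1h2bc and Hist1h1c (0.57, 0.46, 0.55 and 0.59), each over 151, 326, 236 and 436 cells of 1 depth. Tmsb4x and Ptn had r of 0.64, 0.40, 0.38 and 0.55. Cells with a Pgr UMI (33, 98, 64 and 104 cells) were set beside those without. Of 1874 genes, Lcmt1 was at least 2-fold higher and Ucp2 at least 2-fold lower in all 4 libraries, on log2 of CPM plus 10. Areg stood at 15.2, 76.5, 336 and 236 CPM in cells with a Pgr UMI and at 449, 171, 409.9 and 609.9 CPM in cells without one, lower in the former in each library, though by less than 2-fold in 4OHT replicate 1. Cited1 was also lower in cells with a Pgr UMI in each library, by log2 differences of -1.74, -1.74, -0.37 and -1.08, and so was Hsp90aa1, at -2.29, -1.81, -0.60 and -1.01. With so few cells the 2-fold rule does not show how many genes differ.

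Between the labelled groups, 7589 genes were tested in the HS sums with edgeR's quasi-likelihood test and Benjamini-Hochberg adjustment, and 1 passed an adjusted p of 0.05 (0.0132%). At an unadjusted p under 0.05 there were 240 (3.16%). The gene was Ctsr, cathepsin R (ENSMUSG00000055679, chromosome 13, 61159204 to 61164256, minus strand), at 1.54, 3.53, 58.6 and 51.2 CPM (log2 fold change 4.29, standard error 0.46, unadjusted p 5.1e-06, adjusted p 0.0383, edgeR quasi-likelihood test). Its UMIs numbered 2, 6, 91 and 130, of which 65 and 107 came from 1 cell in each 4OHT library. Without the highest cell of each gene and library, no gene passed (smallest adjusted p 0.455, 243 genes at an unadjusted p under 0.05). A luminal cell of corn oil replicate 2 outside the HS set held 67 Ctsr UMIs. The count of genes also moved with 1 library left out: it was 12 without corn oil replicate 1, 37 without corn oil replicate 2, 4 without 4OHT replicate 1 and 80 without 4OHT replicate 2. With no filter on low counts 59 genes passed, with a mean of at least 20 CPM none did, and with replicate number as a block 3 did (Dcn, 4930486L24Rik and Ctsr). The same fit on other luminal cells called 0 of 10073 genes, and 165 had an unadjusted p under 0.05 in edgeR.

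**Figure D5:**
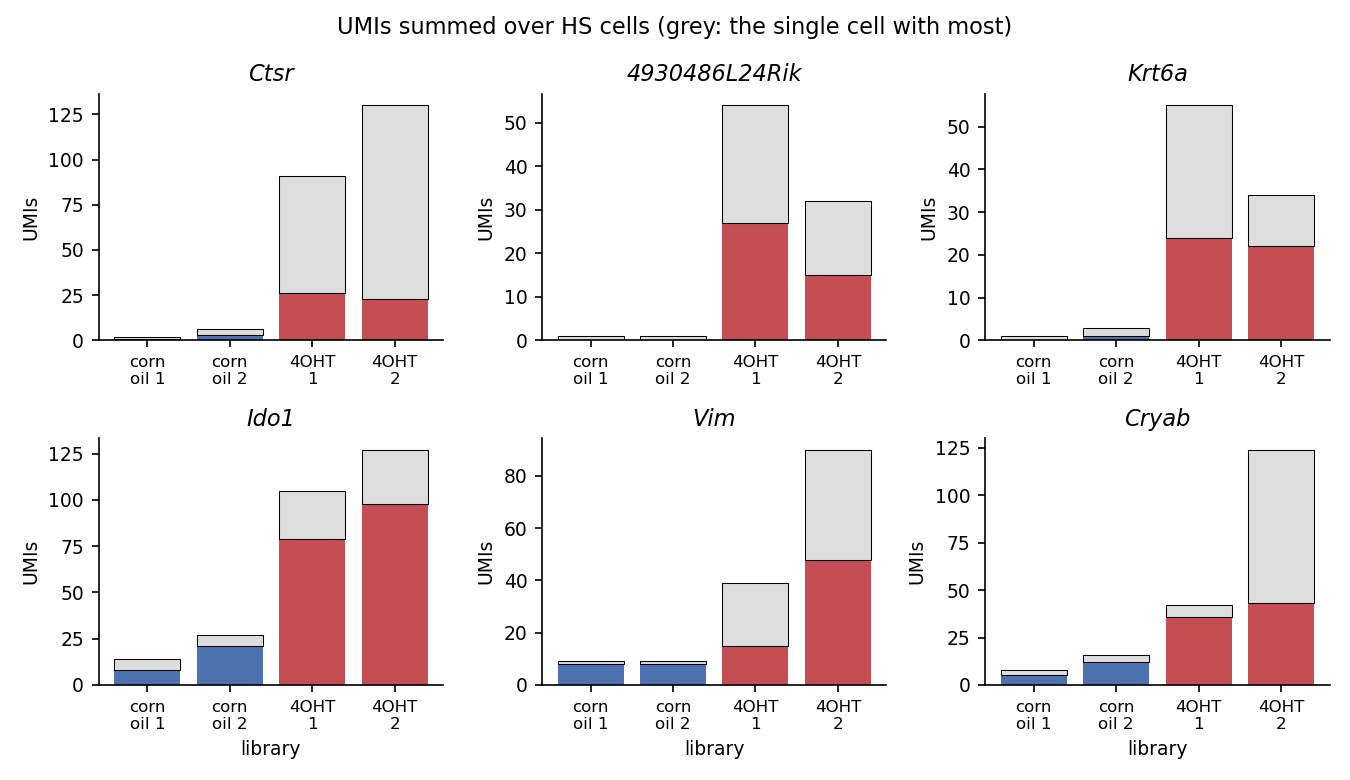
UMIs summed over the HS cells of each library for the 6 genes with the smallest p, with the cell that held most in grey and all other cells in colour (blue, corn oil, red, 4OHT). For Ctsr the grey part is 65 of 91 and 107 of 130 UMIs in the 4OHT libraries.

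The 5 next genes by p, named after their values were seen, did not pass. Ido1, indoleamine 2,3-dioxygenase, which breaks down tryptophan, had 14, 27, 105 and 127 UMIs (log2 fold change 2.06, standard error 0.37, unadjusted p 0.000284, adjusted p 0.437, edgeR quasi-likelihood test), in 7, 14, 20 and 35 cells, and each 4OHT value lay above each corn oil value. Vim, the intermediate filament gene vimentin, was at 6.94, 5.29, 25.1 and 35.4 CPM (log2 fold change 2.29), where 1 cell gave 24 of 39 UMIs in 4OHT replicate 1 and 42 of 90 in 4OHT replicate 2. For Krt6a 1 cell gave 31 of 55 and 12 of 34 UMIs, and for 4930486L24Rik 27 of 54 and 17 of 32. Cryab, a small heat shock protein gene, was at 6.17, 9.41, 27 and 48.8 CPM (log2 fold change 2.22), with 81 of 124 UMIs in 1 cell of 4OHT replicate 2. The adjusted p was 0.437 for Vim, Krt6a and 4930486L24Rik and 0.628 for Cryab (edgeR quasi-likelihood test). None of the 236 listed genes passed. Among lists with more than 1 gene tested, the median farthest from 0 was that of the 12 interferon genes, -0.75 on the log2 scale with 4 of 12 above 0, against -0.01 over all genes tested, where 3750 of 7589 were above 0. Summed over that list, HS cells held 357, 531, 497 and 265 CPM, so the groups overlapped. The sums were 755, 1233, 847 and 327 CPM in other luminal cells and 1035, 1539, 609 and 283 CPM in non-luminal cells. An unadjusted p under 0.05 in edgeR's quasi-likelihood test was found for 2 of these 12 genes, against 3.16% over all genes. It was found for 4 of 9 estrogen targets (median 0.35, 6 of 9 above 0). In the salt and water transport list, which includes the rule's Fxyd2, it was found for 4 of 8 (median 0.34, 5 of 8 above 0). Stc2 had a log2 fold change of 0.92 and Slc12a2 of 0.78 (unadjusted p 0.029 and 0.0112, edgeR quasi-likelihood test). Xbp1, a factor of the unfolded protein response, stood at 62.4, 48.8, 123 and 141 CPM (log2 fold change 1.22, standard error 0.27, unadjusted p 0.0013, adjusted p 0.637, edgeR quasi-likelihood test). The receptors did not pass the test: Prlr was 443 ± 114 in corn oil and 611 ± 39.8 CPM in 4OHT (SD, n = 2 each), Pgr 170.5 ± 45.9 and 164 ± 24.3. Their adjusted p was 1.00 in edgeR's quasi-likelihood test, with unadjusted values of 0.114 and 0.723.

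A model of both populations, with a term for each library, asked whether the 4OHT effect in HS cells differed from that in other epithelial cells. Of 12135 genes, 9 passed edgeR's quasi-likelihood test of that interaction (0.0742%), and 767 (6.32%) had an unadjusted p under 0.05. The value is the log2 effect in HS minus that in other epithelial cells. Ctsr stood first in size, at 6.04 with a standard error of 0.79 (adjusted p 0.00242), and its HS counts came mostly from the same 2 cells. Iigp1, an interferon-induced GTPase, was at 2.47 (adjusted p 0.00214): HS cells held 34.7, 22.4, 62.5 and 23.6 CPM and other epithelial cells 78.7, 82.4, 35.8 and 8.68, and in the latter both 4OHT values lay below both corn oil values. Lgals7, galectin 7, differed in the same way, at 1.70, with 25.4, 40.0, 27 and 38.6 CPM in HS cells and 155, 218, 33.9 and 70.9 in others. The heat shock gene Hspa1a, at 1.21, stood at 689, 436, 1189 and 1157 CPM in HS cells and 1922, 1304, 1517 and 1144 in others. 1600014C10Rik had a difference of 2.17. On the negative side, Sgms2, a sphingomyelin synthase, had -1.77, with 70.2, 106, 47.6 and 20.9 CPM in HS cells and 10.5, 15.4, 16.4 and 12.8 in others. Ecm1, a matrix protein gene, had -1.53, with 123, 139, 70.8 and 65.8 CPM in HS cells and 13.8, 20.7, 21.1 and 24.8 in others, and F3, tissue factor, had -1.52. The ninth, Krt18, had -1.11, but it is a gene of the rule, so its value is a description and supports nothing.

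Sgms2 and Ecm1 stood lower in HS cells of both 4OHT libraries than of both corn oil libraries, but neither passed alone in the HS test (unadjusted p 0.0062 and 0.00473). When the comparison was with other luminal cells only, Ctsr alone passed. The differences of the others there were 2.21 for Iigp1, 1.05 for Hspa1a, -1.78 for Sgms2 and -1.52 for F3, close to those against all other epithelial cells, 1.55 for 1600014C10Rik and -1.28 for Ecm1, somewhat smaller, and 0.46 for Lgals7, from 1.70. With a mean of at least 20 CPM none of 4197 genes passed, and 330 did at an unadjusted p under 0.05. Leaving out 1 library gave 11 genes without corn oil replicate 1, 48 without corn oil replicate 2, 50 without 4OHT replicate 1 and 74 without 4OHT replicate 2. Without the highest cell of each gene and library 27 passed, and Ctsr had an adjusted p of 1.00. With replicate number as a block 61 passed.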

How the data were processed

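Single-cell 3' RNA libraries of mammary glands from 4 mice were made with the 10x Genomics Chromium system, per the labels' protocols. Each deposited matrix holds unnormalized UMI counts for genes by cell barcodes, made with Cell Ranger 3.0.1 on mm10, per the submitters' processing notes. Strand, intron and cell-calling settings are not given in the sources used here. The 4 matrices held 31053 genes and 18223 barcodes, of which 556 failed the cell filter. The automatic doublet threshold of Scrublet (scanpy 1.11.5) marked at most 0.13% of barcodes and was not used. An alternative left out the 639 highest-scoring barcodes, 42 of them HS cells.

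Counts were summed per library and population and scaled to the population's total (CPM). HS and other cells were compared within libraries on log2(CPM + 1), without a test. Genes needed at least 10 CPM as the average of the 2 populations' means. Groups were compared with edgeR 4.0.16 (R 4.3.3) quasi-likelihood tests on TMM-scaled sums, 2 libraries a group. The interaction had library as a block. DESeq2 1.42.0, other filters, thinning, a replicate block and leaving out each library were alternatives. Leaving out the highest cell was chosen after seeing the data. Data were also simulated with a common dispersion for all genes. Of 200 genes changed by 2 on the log2 scale, 76.5% were recovered in the HS comparison (7300 genes, 7 false calls). In the interaction 22.5% were (11934 genes, 1 false call). The simulation held no single cells with many UMIs, so it does not give the recovery in the real sums.

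The HS rule and the 23 gene lists were chosen with earlier results of these data known. Named were listed genes, the 25 highest and 10 lowest by least within-library difference from other epithelial cells (mean of at least 50 CPM), the 10 lowest against other luminal cells, genes past an adjusted p of 0.05, 12 by Fano factor, and Tfap2c. Promoters came from RefSeq (GRCm38.p6), and gene positions from GENCODE M21.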

Additional observations from a re-analysis of the deposited data

Results flagged for a closer look

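The 4OHT effect of 9 genes differed between HS and other epithelial cells by the interaction test (edgeR quasi-likelihood, Benjamini-Hochberg adjusted), each given as the log2 effect in HS minus that in other epithelial cells. Ctsr had 6.04 (standard error 0.79, adjusted p 0.00242), with 1.54, 3.53, 58.6 and 51.2 CPM in HS cells and 0, 4.91, 0.514 and 0.874 CPM in other epithelial cells. Single HS cells held 65 of its UMIs in 4OHT replicate 1 and 107 in 4OHT replicate 2. In corn oil replicate 2 a single other luminal cell held 67. Without the highest cell of each gene and library its value was 1.13 and did not pass. Iigp1 had 2.47 (standard error 0.31, adjusted p 0.00214), with 34.7, 22.4, 62.5 and 23.6 CPM in HS cells and 78.7, 82.4, 35.8 and 8.68 CPM in other epithelial cells. 1600014C10Rik had 2.17 (standard error 0.37, adjusted p 0.0296), with 29.3, 17.6, 41.8 and 70.1 CPM in HS cells and 80.7, 159.8, 38.2 and 75 CPM in other epithelial cells. In other epithelial cells both Iigp1 and 1600014C10Rik stood lower in each 4OHT library than in each corn oil library. Lgals7 had 1.70 (standard error 0.30, adjusted p 0.0296), with 25.4, 40.0, 27 and 38.6 CPM in HS cells and 155, 218, 33.9 and 70.9 CPM in other epithelial cells. Hspa1a had 1.21 (standard error 0.21, adjusted p 0.0296), with 689, 436, 1189 and 1157 CPM in HS cells and 1922, 1304, 1517 and 1144 CPM in other epithelial cells. Hspa1a is a heat shock gene that also varied widely from cell to cell within HS cells. Sgms2 had -1.77 (standard error 0.32, adjusted p 0.0362), with 70.2, 106, 47.6 and 20.9 CPM in HS cells and 10.5, 15.4, 16.4 and 12.8 CPM in other epithelial cells. Ecm1 had -1.53 (standard error 0.26, adjusted p 0.0296), with 123, 139, 70.8 and 65.8 CPM in HS cells and 13.8, 20.7, 21.1 and 24.8 CPM in other epithelial cells. F3 had -1.52 (standard error 0.25, adjusted p 0.0296), with 452, 719, 406 and 313 CPM in HS cells and 205, 211, 449 and 250.1 CPM in other epithelial cells. The ninth gene, Krt18, had -1.11, with 4561, 4430.4, 3484 and 3368 CPM in HS cells and 5003, 4406, 8354 and 5813 CPM in other epithelial cells. It is a gene of the rule that chose the cells, so its value is a description and not a test, and its call was lost with replicate number as a block. Against other luminal cells only, Ctsr alone passed. Of the calls lost there, Iigp1 had 2.21, Sgms2 -1.78 and F3 -1.52, close to the values above, and Lgals7 had 0.46.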

How the results depend on the processing

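The share difference between 4OHT and corn oil ranged from -4.52 to 7.55 points of luminal cells and from -1.56 to 2.76 points of epithelial cells with 1 library left out. It was reversed without corn oil replicate 1 (-4.52 and -1.56) and without 4OHT replicate 2 (-4.50 and -1.13). With replicate number as a block it was 1.51 and 0.60 points, the same direction in both pairs. The labels do not say that the numbers pair mice, and over 7589 genes the replicate differences of the groups correlated at 0.22. In HS cells, the 1 gene called became 59 with no filter, 0 with a mean of at least 20 CPM (114 at an unadjusted p under 0.05 in edgeR), 3 with the replicate block, 0 with cells thinned to 2000 UMIs (171 at an unadjusted p under 0.05), 0 with the highest cell left out, and 4 to 80 with 1 library left out. DESeq2's Wald test called 1. Tfap2c was reversed without corn oil replicate 1, and ranged from -0.96 to 0.23 with 1 library left out. The 9 genes of the interaction became 1 against other luminal cells only, 0 with a mean of at least 20 CPM, 61 with the replicate block, 27 with the highest cell left out and 11 to 74 with 1 library left out. Ctsr was reversed there without corn oil replicate 2, and ranged from -0.65 to 6.60 with 1 library left out. Without a filter on low values, 684 genes were higher and 1257 lower against other epithelial cells, and 703 higher and 569 lower against other luminal cells. The change to other luminal cells left 357 lower. Without corn oil replicate 2, 614 genes were higher against other luminal cells, and leaving out other libraries gave from 426. The cause of these changes was not tested. Of single named genes against other cells, 468 of the alternatives gave a difference within the replicate spread and 27 a larger shift. Omitting 1 of 4 libraries cannot move a mean by more than that spread, so those settings fell within it by arithmetic. The count is therefore no measure of stability. With 2 mice a group and 151 to 447 HS cells a library, single cells with many UMIs set several values, and intervals cover counting error only.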
